A study of Mus musculus with 12 samples.

Results

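Cytosolic ribosomal protein genes were followed in RNA from the mouse striatum after ischemic stroke. The members were taken by symbol: names that start with Rpl or Rps followed by a digit, Rplp0 to Rplp2 and Rpsa, without names that hold -ps and without the ribosomal S6 kinases (Rps6k). Of 54532 annotated genes in the count files, 93 met this rule. They comprised 43 large subunit genes, 31 small subunit genes and 3 genes of the stalk, together 77 subunit genes, and also 7 paralogs, 7 genes annotated as pseudogenes and 2 genes whose proteins are not subunits (Rps19bp1 and Rpl7l1). The members lay on 19 chromosomes, 4 of them on X, and 86 were annotated as protein coding. The 12 libraries came from 6 groups of 2: C57BL/6J wild-type (WT) mice, and mice labelled cGAS-KO or STING-KO, made with CRISPR-Cas9 on the same background, each at day 7 and at day 14. All groups had a stroke, and no uninjured group was among the libraries. The labels do not say whether both libraries of a group came from separate mice, so p-values measure only the spread between these libraries, which may be technical. The groups are called by their labels, because the targeted transcripts did not follow them in every comparison, as given below.

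Each ribosome holds a small subunit, which reads the mRNA, and a large subunit, which joins amino acids and carries a stalk of P proteins that recruits translation factors. The genes for these proteins are transcribed at high and matched levels in most cells, and their mRNAs are known for a pyrimidine tract at the 5′ end (the TOP motif), through which mTOR signalling controls their translation. A few subunits have a second, nearly identical gene copy that is used in certain tissues or under stress. cGAS is an enzyme that senses DNA in the cytosol, and STING is the adaptor through which its product induces interferon.

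The start sites of 10 members are shown because their levels moved apart from each other: the first 5 fell in WT libraries between day 7 and day 14, and the last 5 were among those with the largest rises. Each line holds 15 bases before the start of transcription and the first 15 transcribed bases, from RefSeq on GRCm38.p6, 5′ to 3′ on the strand of the gene, and capitals mark a pyrimidine run (a C followed by at least 5 more C or T, beginning within 10 bases of the start).
Rpl28, chr7:4792950-4792979, + strand: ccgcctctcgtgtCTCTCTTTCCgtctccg
Rpl35, chr2:39005117-39005146, - strand: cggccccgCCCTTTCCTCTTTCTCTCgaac
Rpl38, chr11:114668565-114668594, + strand: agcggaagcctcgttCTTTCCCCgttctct
Rps15, chr10:80292416-80292445, + strand: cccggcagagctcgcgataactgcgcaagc
Rps28, chr17:33824548-33824577, - strand: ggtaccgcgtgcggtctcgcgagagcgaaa
Rpl26, chr11:68901551-68901580, + strand: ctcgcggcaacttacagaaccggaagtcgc
Rpl39, chrX:37085208-37085237, - strand: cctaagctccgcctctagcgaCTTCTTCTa
Rplp0, chr5:115559452-115559481, + strand: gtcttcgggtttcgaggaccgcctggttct
Rps12, chr10:23787195-23787224, - strand: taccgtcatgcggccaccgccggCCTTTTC
Rps27l, chr9:66946071-66946100, + strand: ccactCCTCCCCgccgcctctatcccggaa
Both sets mixed starts with and without a run: Rpl28, Rpl35 and Rpl38 had one in the first set and Rpl39, Rps12 and Rps27l in the second. Bases more than 10 before the start were not searched, so a run that begins earlier was counted by its part inside. In Rps27l the pyrimidines begin before that limit, and the marked part ends before the start of transcription. Of the 93 members, 68 had an entry in the promoter table, 57 of them subunit genes. A run was found in 28 of these 57 (49.1%), against 18.4% of 26957 other promoters. Only the first RefSeq entry of each gene was used, and its annotated start was not checked against reads. In GENCODE, Rps15 begins at 80292453 and Rpl26 at 68901583, both past the bases shown. A gene counted without a run may therefore have one at another start. The medians of the subunit genes with a run and of those without were 1.25 against 1.22 for STING-KO minus WT at day 7 and -1.27 against -1.17 for day 14 minus day 7 in STING-KO, on the log2 scale. In the 300 bases from 250 before to 50 after the start, read on both strands, the letters CCGGAAG occurred in 23 of the 57 promoters (40.4%; 9.1% of the others), AAGATGGC in 4 (7.0%; 2.9%) and TATAAA in 5 (8.8%; 14.2%) (CCGGAAG and AAGATGGC can overlap by AAG). A match in these letters is a description and not a shown binding site. Of the 77 subunit genes, 30 (38.96%) host a small nucleolar RNA gene, against 1.327% of the other protein-coding genes tested.

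Library totals ran from 15956242 to 22126213 counts, at which 3 counts equal 0.133 to 0.195 CPM (counts per 1000000 of the TMM-scaled library total). Cgas RNA was lower in libraries labelled cGAS-KO than in WT at day 14 (5.12 ± 1.45 against 10.1 ± 3.45 CPM; SD, n = 2). That difference was not significant (-0.98 on the log2 scale, adjusted p = 0.271, edgeR quasi-likelihood test). At day 7 Cgas RNA was higher (5.60 ± 0.0771 against 3.11 ± 0.203 CPM, adjusted p = 0.0438). In libraries labelled STING-KO it was also lower than in WT at day 14 (4.04 ± 0.648 CPM, -1.32, adjusted p = 0.00603). There too it was higher at day 7 (11.9 CPM, 1.94, adjusted p = 0.000249). The lower Cgas level at day 14 was therefore not particular to the cGAS-KO label. Tmem173, the gene of STING, was lower in libraries labelled STING-KO than in WT at day 14 (3.80 ± 1.98 against 21.5 ± 1.03 CPM) and higher at day 7 (22.3 ± 2.09 against 2.75 ± 0.0667 CPM). Whether the deleted part of either gene lies in the counted exons is not given in the sources used here. The cell makeup of the libraries also differed: summed over 7 microglia and macrophage markers, none of them at 0 in any library, the 7-day WT libraries held 191 and 219 CPM, the other 7-day libraries 3775 to 5526, and the 14-day libraries 286 to 1954. In bulk tissue, fewer cells of a type and less RNA per cell cannot be told apart.

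The ribosomal protein genes took up the smallest share of the library in 7-day WT and the largest in the other 7-day groups. The 93 genes held 1.25% and 1.17% of all counts in the 7-day WT libraries, 2.90% and 2.56% in 7-day cGAS-KO and 2.77% and 2.83% in 7-day STING-KO. At day 14 they held 2.09% and 1.66% in WT, 1.91% and 2.07% in cGAS-KO and 1.53% and 1.16% in STING-KO. Thus the groups did not overlap at day 7 between WT and either knockout label, WT and cGAS-KO overlapped at day 14, and both 14-day STING-KO libraries lay below the other 14-day libraries. The mean share was 1.21% ± 0.0572 (SD, n = 2) in 7-day WT, 2.73% ± 0.239 in 7-day cGAS-KO and 2.80% ± 0.0482 in 7-day STING-KO. At day 14 it was 1.88% ± 0.307 in WT, 1.99% ± 0.116 in cGAS-KO and 1.35% ± 0.261 in STING-KO. With 2 libraries against 2, an exact permutation test of these shares could not reach the threshold, so none is given. Transcripts of the mitochondrial genome made up 3.27% to 4.08% of counts at day 7 and 5.08% to 8.41% at day 14 (group means), and without them the order of the group means of the share was the same, from 1.26% in 7-day WT to 2.89% in 7-day STING-KO.

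**Figure D1:**
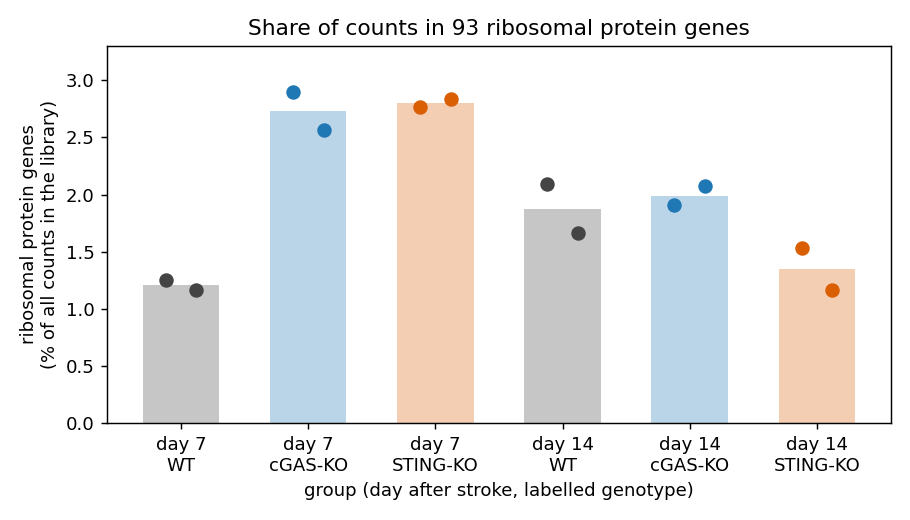
Percent of all counts of a library that fell in the 93 ribosomal protein genes, by group of day and labelled genotype; bars are the means of 2 libraries and points the libraries. The 7-day WT libraries sit at 1.25% and 1.17%, below the other 7-day libraries (2.56% to 2.90%), and the 14-day STING-KO libraries sit at 1.53% and 1.16%.

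At day 7 nearly every subunit gene was lowest in WT, while the lowest of all 6 groups differed between genes. The median level of the 77 subunit genes at day 7 was 140.2 and 138 CPM in WT, 328 and 294 in cGAS-KO and 335 and 346 in STING-KO. At day 14 it was 239.5 and 180.4 CPM in WT, 215 and 251 in cGAS-KO and 169 and 133 in STING-KO. The highest group mean was in 7-day STING-KO for 62 of the 77 genes and in 7-day cGAS-KO for 7. It was in 14-day WT for 4 genes and in 14-day cGAS-KO for 4. The lowest group mean was in 7-day WT for 43, in 14-day STING-KO for 32 and in 14-day WT for 2. In 76 of the 77 genes both 7-day WT libraries lay below all 4 other 7-day libraries, where over all tested genes the WT libraries failed to overlap those of cGAS-KO in 80.2% and those of STING-KO in 80.9%, in either direction. As a description over 12 libraries, which share the group differences, each gene's log2(CPM + 0.5) correlated with the mean of the other subunit genes at a median Pearson's r of 0.885 (0.144 to 0.993). It was over 0.9 in 34 genes and under 0.5 in 4, among them Rpl26 (0.20) and Rpl24 (0.14).

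**Figure D2:**
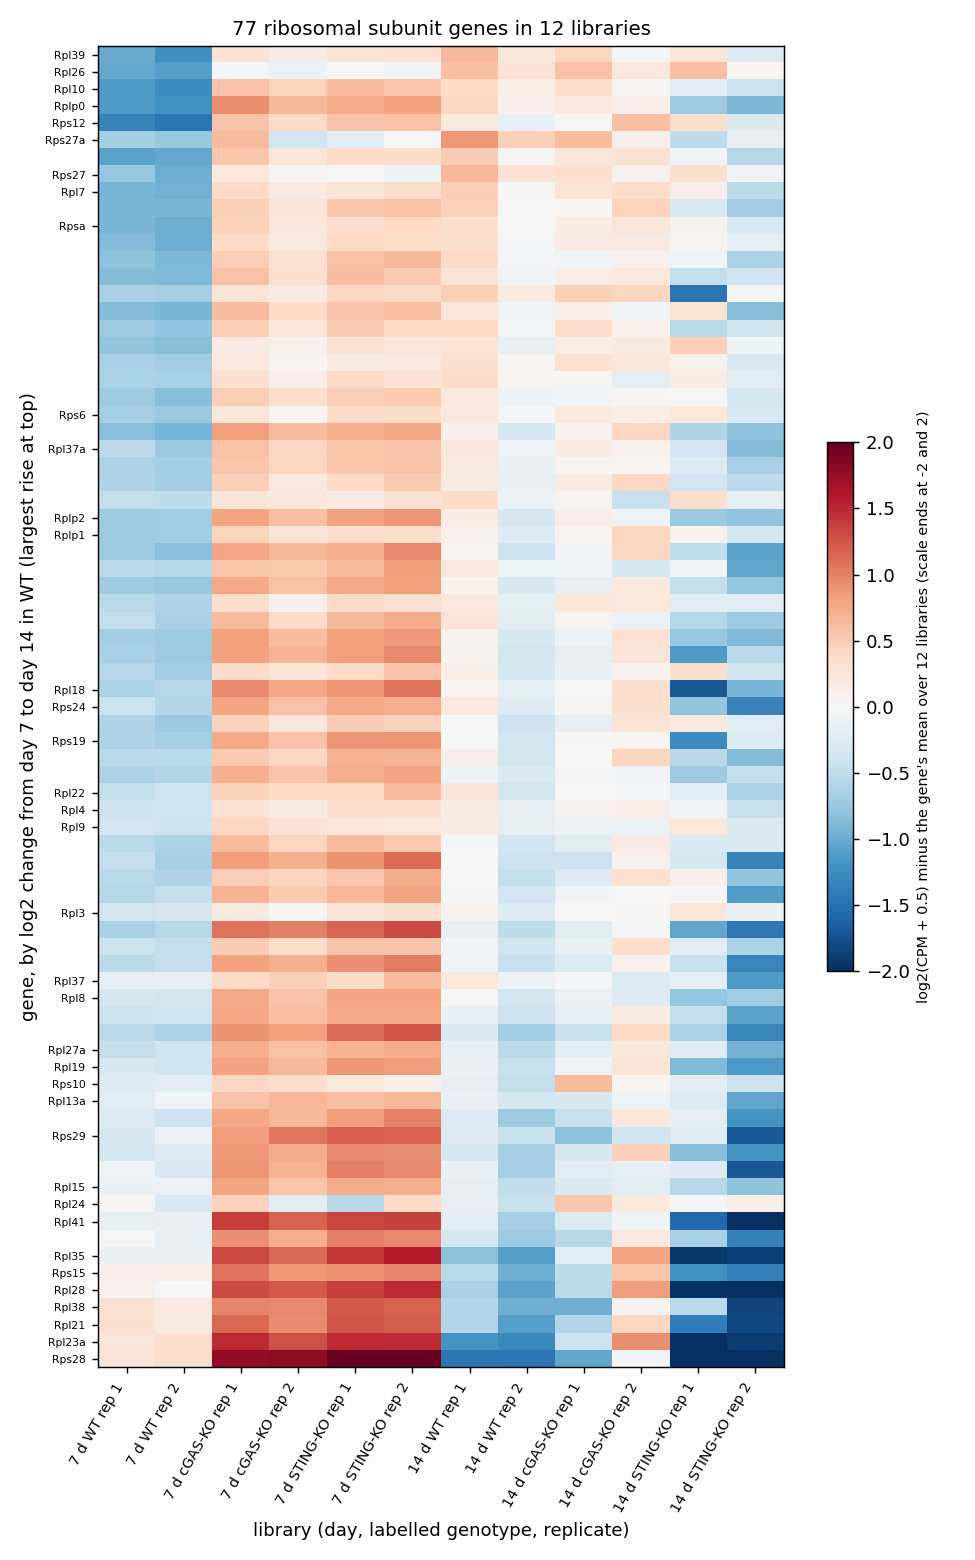
Level of the 77 subunit genes (1 line per gene) in the 12 libraries (columns, by group), as log2(CPM + 0.5) minus the gene's mean over the libraries; genes are sorted by the WT change from day 7 to day 14, and those named in the text are labelled. In 76 of the 77 genes the 7-day WT columns lie below all other 7-day columns, and the genes at one end of the sort, such as Rps28 and Rpl23a, are low in 14-day WT and lower in 14-day STING-KO.

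Per kilobase of transcript, the highest levels over the 12 libraries were those of Rplp1, a stalk protein (1226 CPM per kb), Rpl41, a very short basic peptide of the large subunit (848), Rps27, a zinc finger protein of the small subunit (661), and Rpl26, a large subunit protein known to bind Trp53 mRNA (653). The lowest among tested members were the paralogs Rpl3l (0.355 CPM per kb), known from muscle, and Rpl39l (0.473), known from testis, and the annotated pseudogenes Rps3a2 (0.635) and Rps3a3 (0.659). Rpl10l, also known from testis, and the pseudogene Rps12l1 had no count in any library, which allows up to 0.195 CPM in the shallowest one, and the pseudogene Rpl32l had at most 10 counts. These 3 were not tested, which left 90 members, all 77 subunit genes among them. Among those 77, Rpl24, Rps10 and Rpl13a were the lowest, at a mean of 1.90, 4.47 and 16.3 CPM over the 12 libraries. These 3 were chosen after their values were seen: they share 47.0%, 20.6% and 29.4% of their exon bases with another annotated gene on the same strand (Gm28037, RPS10-NUDT3 and Gm45713). Of the other subunit genes, Rpl19 shared 3.5% with Gm11629 and 73 shared none, and the lowest of the 73 stood at 81.5 CPM. A near copy of Rps10 named as a pseudogene, Rps10-ps2, held 14215 counts over the libraries against 1002 for Rps10 itself. How shared reads were assigned is not given in the sources used here, so the levels and changes of Rpl24, Rps10 and Rpl13a are uncertain, and the part of the shared bases in their low levels was not tested.

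The spread over the 12 libraries differed between members by several fold. The highest library exceeded the lowest by a median of 3.09-fold among the subunit genes. It did so by 22.3-fold for Rps28, a small subunit protein, by 16.4-fold for Rpl23a, which lies at the exit tunnel for the new chain, and by 12.1-fold for Rpl28, of the large subunit. The SD of log2(CPM + 0.5) was 1.66 for Rps28, 1.43 for Rpl23a, 1.29 for Rpl28 and 1.26 for Rpl35. It was lowest for Rps19bp1 (0.219), a nucleolar protein that binds Rps19, and for the large subunit genes Rpl3 (0.234), Rpl9 (0.279) and Rpl4 (0.296).

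At day 7 the ribosomal protein genes were higher in both knockout labels than in WT, across both subunits and the stalk. Of 90 tested members, 78 were higher and 0 lower in cGAS-KO than in WT, where 27.8% of all 19822 tested genes were higher and 22.4% lower (edgeR quasi-likelihood test, adjusted p below 0.05). In STING-KO 79 were higher and 0 lower, against 26.3% and 22.6% of all tested genes. The median log2 change of the members was 1.09 in cGAS-KO and 1.20 in STING-KO, beside 0.042 and 0.029 over all tested genes. Both comparisons used the same WT libraries. Of these calls, 62 and 65 were made in each of the 12 fits that left out 1 library.

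The stalk genes were called in both comparisons. Rplp0, the base of the stalk and a common reference transcript (ENSMUSG00000067274, chr5:115559467-115563727, mm10, + strand), stood at 202 and 192 CPM at day 7 in WT, 845 and 705 in cGAS-KO and 745 and 773 in STING-KO, and at 594 and 477 at day 14 in WT, 510.4 and 476 in cGAS-KO and 272 and 239 in STING-KO. Its 7-day WT libraries were the lowest of all 12, and no group overlapped WT at day 7. It was higher than WT by 1.97 (SE 0.17, adjusted p = 2.59e-06) in cGAS-KO and by 1.95 (SE 0.17, adjusted p = 2.85e-06) in STING-KO on the log2 scale. Its partners at the tip, Rplp1 and Rplp2, rose by 1.05 and 1.40 in cGAS-KO (adjusted p = 0.000819 and 3.87e-05).

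In the small subunit, 30 of 31 genes were higher in cGAS-KO (median 1.20) and 29 of 31 in STING-KO (median 1.28). Rps12 was at 82.4 and 76.0 CPM in WT, 308 and 272 in cGAS-KO and 309.9 and 313 in STING-KO at day 7, which put both WT libraries far under the rest. The log2 difference from WT was 1.87 (SE 0.24, adjusted p = 5e-05) and 1.98 (SE 0.24, adjusted p = 3.69e-05). Rpsa, the laminin receptor precursor, rose by 1.29 and 1.31 (adjusted p = 8.88e-05 and 8.42e-05). Rps6, the substrate of S6 kinases, rose by 0.86 and 1.08 (adjusted p = 0.00171 and 0.000378). Rps27a, made as a fusion with ubiquitin, had unequal replicates, 290.0 and 145 CPM in cGAS-KO beside 118 and 111 in WT. Its call in cGAS-KO (0.93, SE 0.29, adjusted p = 0.0212) was lost without replicate 1 of 7-day cGAS-KO (0.30) and without either 7-day WT library, and in STING-KO it was not called (0.61, adjusted p = 0.106).

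In the large subunit, 40 of 43 genes were higher in cGAS-KO (median 1.08) and 41 of 43 in STING-KO (median 1.19). Rpl10, an X-linked protein that completes the large subunit late in its assembly, was at 205 and 189 CPM in WT, 666 and 612 in cGAS-KO and 688 and 664 in STING-KO. Its log2 difference was 1.70 (SE 0.17, adjusted p = 8.41e-06) and 1.78 (SE 0.17, adjusted p = 6.31e-06), with no overlap of libraries. Near the median of the members lay Rpl27a and Rpl19 for cGAS-KO (1.09 and 1.09) and Rpl23a and Rpl37a for STING-KO (1.20 and 1.20). Rpl3, which shapes the peptidyl transferase centre, had the smallest change among the members called in cGAS-KO at day 7, from 408 and 417 CPM to 594 and 538 in cGAS-KO. That difference (0.46, SE 0.17, adjusted p = 0.0428) lost its call when any 1 of the 4 libraries compared was left out, and kept it in 3 of the 12 fits without 1 library. The subunit genes not called in cGAS-KO were Rpl24, Rps10, Rpl37 and Rpl38, with values of 0.34 to 0.74. In STING-KO they were Rpl24, Rps10, Rps27a and Rpl38, with values of 0.17 to 0.97; these genes are named because they were few, after their values were seen. Rpl13a, known to silence translation under interferon-gamma once released from the ribosome, was at 13.1 and 14.7 CPM in WT and 23.1 and 24.7 in cGAS-KO (0.78, SE 0.23, adjusted p = 0.0127), a call lost without 7-day cGAS-KO replicate 2 or 7-day WT replicate 1, and also with a smooth trend of transcript GC content and length removed from each library (0.22, adjusted p = 0.429). The near copy Rps10-ps2 was called higher in STING-KO by 1.52 (adjusted p = 9.48e-05).

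The paralogs did not move as one. Rps27l, a copy of Rps27 known as a p53 target (ENSMUSG00000036781, chr9:66946086-66949516, mm10, + strand), stood at 8.80 and 8.48 CPM at day 7 in WT, 58.7 and 49.3 in cGAS-KO and 52.9 and 58.8 in STING-KO, and at 30.9 and 22.1 at day 14 in WT, 20.4 and 19.8 in cGAS-KO and 19.9 and 12.4 in STING-KO. The 7-day WT libraries were the lowest and all 4 other 7-day libraries the highest. Rps27l rose by 2.64 (SE 0.24, adjusted p = 3.68e-06) in cGAS-KO and 2.69 (SE 0.24, adjusted p = 3.27e-06) in STING-KO, the largest log2 change of any called member in cGAS-KO, while Rps27 itself rose by 0.98 and 0.81 (adjusted p = 0.000932 and 0.00346). Rpl22l1, which can replace Rpl22, was not called: 27.9 and 26.0 CPM in WT against 34.0 and 26.6 in cGAS-KO, a log2 difference of 0.17 (adjusted p = 0.635), beside 0.86 for Rpl22 (adjusted p = 0.00376). Rpl39l rested on few counts, 1 and 1 in 7-day WT, 6 and 7 in 7-day cGAS-KO and 14 and 15 in 7-day STING-KO. It was called in STING-KO (adjusted p = 0.00562), not without either 7-day WT library, and no fold is given because the fitted one depends on the prior count. Rpl3l had at most 15 counts and was not called in either comparison. Of the 5 tested pseudogenes, 2 were called higher in each comparison, and of the 2 genes that are not subunits Rpl7l1, a nucleolar relative of Rpl7, was called (0.71 in cGAS-KO, adjusted p = 0.00183) and Rps19bp1 was not (-0.020, adjusted p = 0.952).

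**Figure D3:**
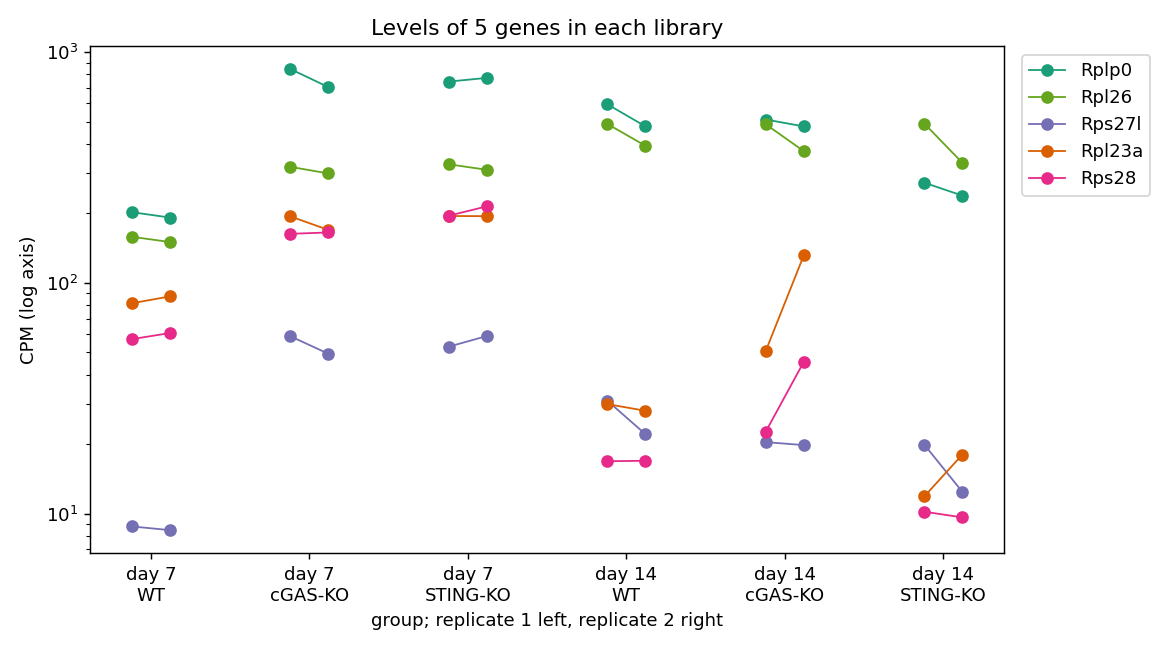
CPM (log axis) of Rplp0, Rpl26, Rps27l, Rpl23a and Rps28 in each of the 12 libraries, by group. Rplp0 and Rps27l are lowest in 7-day WT, Rps28 and Rpl23a are lowest in 14-day STING-KO (9.63 to 18.0 CPM), and Rpl26 is higher at day 14 than at day 7 in every genotype.

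Markers of other cells moved with these differences. All 7 microglia and macrophage markers were higher in both knockout labels at day 7 (median 4.24 in cGAS-KO and 4.40 in STING-KO), and all 6 neuron markers were lower (medians -2.14 and -1.93). All 5 fibroblast markers (medians 6.51 and 5.51), all 6 choroid plexus markers (4.86 and 4.67) and all 4 ependyma markers (2.57 and 2.25) were higher in both. Of the 4 endothelium markers 4 were higher in cGAS-KO and 3 in STING-KO (medians 2.26 and 1.53). The 9 markers of striatal projection neurons did not go the way of the neuron list: 2 were higher and 0 lower in each knockout label (medians 0.64 and 0.82). Drd1, a dopamine receptor gene on that striatal list, was at 4.76 and 4.44 CPM in 7-day WT, where Slc17a7, the vesicular glutamate transporter of cortical neurons, was at 1270 and 1522. The summed striatal markers were 129 to 448 CPM over the 7-day libraries and 738 to 6136 over the 14-day libraries, without overlap. The summed neuron markers were 5852 and 6509 CPM in 7-day WT and 1050 to 1615 in the other 7-day libraries, and no neuron marker was at 0 in any library. All 4 cycling markers were called higher in cGAS-KO, from sums of 4.60 and 5.21 CPM in WT to 213 and 197. The part of cell makeup in the ribosomal protein differences was not tested. Transcript length moved with them too: among other protein-coding genes, those under 600 bases had a median change of 0.36 in cGAS-KO and 0.40 in STING-KO, and those of 4000 bases or more -0.17 in both. After a smooth trend with transcript GC content and length was removed from each library, an alternative added after the data had been seen, 57 members were called higher and 1 lower in cGAS-KO (median 0.60), and 64 higher and 0 lower in STING-KO (median 0.70). No member was called between the knockout labels at day 7: of 90 members 0 were higher and 0 lower in cGAS-KO minus STING-KO by edgeR and 0 by DESeq2, none had an unadjusted p below 0.05, and 0.0858% of all genes were called higher and 0.0757% lower. The member with the smallest p was Rps19bp1 (-0.47 ± 0.22, SE; adjusted p = 0.575), and the median of the members was -0.11.

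At day 14 part of the members were lower in STING-KO than in WT, and none was called in cGAS-KO. In STING-KO 0 of 90 members were higher and 28 lower, against 16.5% of all tested genes higher and 17.4% lower. The median was -0.45 over the members and -0.035 over all tested genes. The lower calls fell on 13 of 43 large subunit genes, 10 of 31 small subunit genes and 2 of 3 stalk genes, and on 2 of 6 paralogs. This count rested on single libraries: it was 5 without 14-day WT replicate 1, 17 without 14-day STING-KO replicate 2 and 14 when only the 4 compared libraries were fitted, all lower, where 20%, 32.7% and 23.8% of all genes were called in either direction. It was 3 higher and 13 lower with the GC and length trend removed (median -0.14). Genes called lower in each of the 12 fits without 1 library included Rplp0, Rpl18, Rpl41 and Rps24.

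Rplp0 fell from 594 and 477 CPM in WT to 272 and 239 in STING-KO at day 14, without overlap, a log2 difference of -1.07 (SE 0.16, adjusted p = 0.000567). Rpl41 fell from 243 and 180.4 CPM to 95.4 and 64.6, also without overlap (-1.40, SE 0.20, adjusted p = 0.000432). Rps24, a small subunit protein mutated in some forms of Diamond-Blackfan anemia, fell from 346 and 251 CPM to 174 and 119.6 (-1.02, SE 0.21, adjusted p = 0.00319). In each of these 3 genes both STING-KO libraries lay under both WT libraries, which the rule for naming the largest falls required. Over all 19822 tested genes, 6533 lay wholly lower in STING-KO and 6059 wholly higher. Rpl18, of the large subunit, fell from 166 and 141 to 48.9 and 85.9 CPM (-1.18, SE 0.23, adjusted p = 0.00236), with its STING-KO replicates unlike each other. Rplp1 of the stalk was not called: its libraries, 630.3 and 495 CPM in WT and 618 and 465 in STING-KO, overlapped (-0.056, adjusted p = 0.851), and Rps12 also stood at 0.014. Rps27l was called lower (-0.71, SE 0.23, adjusted p = 0.031), but not without 14-day WT replicate 1 (-0.46) or 14-day STING-KO replicate 2 (-0.43).

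For cGAS-KO against WT at day 14, 0 members were called higher and 0 lower by edgeR, where 0% of all genes were called higher and 0.0303% lower. Without adjustment, 11 members had a p below 0.05 and were higher and 2 were lower, among 1084 and 1101 of all genes, and DESeq2 called 3. Those 3, all higher, were Rpl35, Rpl23a and Rps28 (DESeq2 adjusted p = 0.00114, 0.00135 and 0.0327). The edgeR values were 1.33 ± 0.26 for Rpl35, which lies beside the exit tunnel (adjusted p = 0.136), and 1.66 ± 0.35 for Rpl23a (adjusted p = 0.159). The 2 cGAS-KO libraries differed in these genes: Rpl35 was at 70.5 and 143 CPM against 46.7 and 38.0 in WT, and Rpl23a at 50.8 and 132 against 29.8 and 27.9. Without cGAS-KO replicate 1, 4 members were called higher, Rpl35 (1.74), Rpl23a (2.18), Rpl28 (1.68) and Rps28 (1.42). The members had a median of 0.14, and Rplp0 stood at -0.12 (adjusted p = 0.825).

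The knockout labels separated from each other at day 14, where 42 of 90 members were higher in cGAS-KO than in STING-KO and 0 lower, against 18.2% of all genes higher and 17.7% lower. The median was 0.55, beside 0.037 over all genes. The largest differences were those of Rpl23a (2.61, SE 0.37, adjusted p = 0.000521), Rpl28 (2.36, SE 0.35, adjusted p = 0.000688) and Rpl35 (2.30, SE 0.27, adjusted p = 0.000221). Rpl23a was at 50.8 and 132 CPM in cGAS-KO against 11.9 and 18.0 in STING-KO, and Rpl28 at 88.7 and 231 against 32.3 and 29.99. Both STING-KO libraries lay below both cGAS-KO libraries, which the rule for naming the largest rises required. Over all 19822 tested genes, 6608 lay wholly higher in cGAS-KO and 6283 wholly lower. In both genes cGAS-KO replicate 2 lay far above replicate 1. Without that replicate 2, 26 members were called, all higher, among 22% of all genes in either direction. Rpl41 had closer replicates, 236 and 268 CPM in cGAS-KO, and differed by 1.65 (SE 0.21, adjusted p = 0.000251). The members called in each fit without 1 library numbered 19, and 26 were called higher and 2 lower with the GC and length trend removed (median 0.23).

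The markers at day 14 moved in the same comparisons. All 7 microglia and macrophage markers were lower in STING-KO than in WT (median -2.58; summed 286 and 619 CPM against 1883 and 1954), and all 9 markers of striatal projection neurons were higher (median 2.75; 5742 and 6136 CPM against 973 and 738), with none at 0 in any library. All 5 fibroblast and all 5 oligodendrocyte markers were lower in STING-KO (medians -2.78 and -0.97). In cGAS-KO the microglia and macrophage sums were 1585 and 1817 CPM. GC content moved as well: other protein-coding genes under 45% GC had a median of 0.25 and those of 55% or more -0.36 in STING-KO minus WT. Between the 2 STING-KO libraries themselves, replicate 2 minus replicate 1 was -0.17 in the first and 0.43 in the second of these bins, and -0.39 in the median subunit gene, with 13 of 77 positive. The part of cell makeup, of GC content and of this library difference in the results was not tested.

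**Figure D4:**
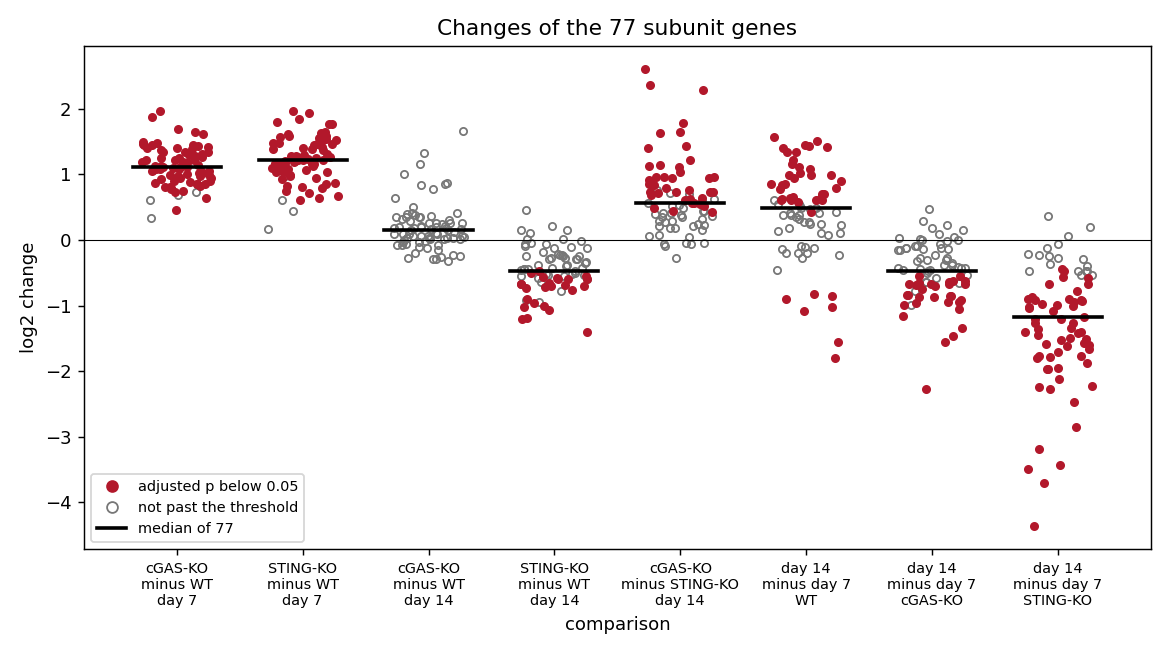
Log2 change of the 77 subunit genes (points) in 8 comparisons, with the median as a black line; filled red points have an adjusted p below 0.05 (edgeR). The medians are 1.11 and 1.22 for cGAS-KO and STING-KO minus WT at day 7, -0.47 for STING-KO minus WT at day 14, 0.49 for day 14 minus day 7 in WT and -1.17 in STING-KO.

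Between day 7 and day 14 more ribosomal protein genes rose than fell in WT, while in both knockout labels every member that was called fell. In WT 38 of 90 members were higher at day 14 and 8 lower, against 24.1% and 19.7% of all tested genes, with a median of 0.45 (0.070 over all genes). In cGAS-KO 0 were higher and 33 lower, against 13.4% and 17%, with a median of -0.48 (-0.0071 over all genes). In STING-KO 0 were higher and 67 lower, against 27.4% and 29.5%, with a median of -1.19 (-0.039 over all genes). The 3 comparisons contrast different libraries, but they come from 1 fit with a pooled spread. The WT count of rises and falls was 28 without 14-day WT replicate 1 and 29 without 7-day WT replicate 2, where 28.5% and 26.6% of all genes were called in either direction. The cGAS-KO count was 9 without 14-day replicate 1, 7 without 7-day replicate 1 and 18 without 7-day replicate 2, all lower, where 16.4%, 14.1% and 22.5% of all genes were called in either direction. It was 3 higher and 12 lower with the GC and length trend removed (median -0.21). The STING-KO count ran from 60 to 75 over the fits without 1 library, and was 8 higher and 47 lower with the trend removed (median -0.51). Calls made in each fit without 1 library numbered 22 higher and 2 lower in WT, 6 lower in cGAS-KO and 58 lower in STING-KO.

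In WT the rises covered 19 of 31 small subunit genes, 13 of 43 large subunit genes and all 3 stalk genes, though Rplp1 and Rplp2 lost the call without 14-day WT replicate 1 and without either 7-day WT library. Rpl26 was at 158 and 150.3 CPM at day 7 in WT, 318 and 298 in cGAS-KO and 326 and 309 in STING-KO, and at 489 and 393 at day 14 in WT, 487 and 372 in cGAS-KO and 490.3 and 331 in STING-KO. It rose in WT by 1.51 (SE 0.21, adjusted p = 0.000141), and it was not called lower at day 14 in the knockout labels (0.48 in cGAS-KO, adjusted p = 0.0937; 0.37 in STING-KO, adjusted p = 0.136). Rpl39, a very short protein in the wall of the exit tunnel, rose in WT from 93.6 and 79.7 to 294 and 220.4 CPM (1.57, SE 0.22, adjusted p = 0.000171). Rpl10 rose from 205 and 189 to 592 and 488 CPM (1.45, SE 0.17, adjusted p = 5.12e-05), and Rplp0 by 1.44 (SE 0.17, adjusted p = 4.73e-05). The WT libraries of the 2 days did not overlap in any of these 4 genes, which the rule for naming the largest rises required. Over all 19822 tested genes, 7965 lay wholly higher at day 14 in WT and 7144 wholly lower. Among the paralogs Rps27l rose by 1.61 (SE 0.24, adjusted p = 0.000229) and Rps27rt, a related gene with 1 exon, by 1.58 (SE 0.25, adjusted p = 0.000399), while Rps27 rose by 1.34 (adjusted p = 0.000169). Reads of Rps27, Rps27l and Rps27rt could be shared, which makes the split among them uncertain.

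The members that fell in WT were the 7 subunit genes Rps28, Rpl23a, Rpl21, Rpl38, Rpl28, Rps15 and Rpl35 and the paralog Rpl22l1. Rps28 (ENSMUSG00000067288, chr17:33819027-33824562, mm10, - strand) stood at 57.0 and 60.6 CPM at day 7 in WT, 163 and 165 in cGAS-KO and 195 and 215 in STING-KO, and at 16.9 and 16.9 at day 14 in WT, 22.7 and 45.5 in cGAS-KO and 10.2 and 9.63 in STING-KO. Its 14-day libraries were all below its 7-day libraries, and the lowest 2 were those of STING-KO. Rpl23a (ENSMUSG00000058546, chr11:78180932-78183584, mm10, - strand) stood at 81.6 and 87.4 CPM at day 7 in WT, 194 and 169.6 in cGAS-KO and 195 and 195 in STING-KO, and at 29.8 and 27.9 at day 14 in WT, 50.8 and 132 in cGAS-KO and 11.9 and 18.0 in STING-KO. Rps28 fell by 1.80 (SE 0.25, adjusted p = 0.000169) and Rpl23a by 1.55 (SE 0.35, adjusted p = 0.00415) in WT on the log2 scale, and both were called in each fit without 1 library. Rpl21 changed by -1.09 (SE 0.29, adjusted p = 0.011) and Rpl22l1 by -1.11 (SE 0.28, adjusted p = 0.00814), and both lost the call without 14-day WT replicate 2 (-0.90 and -0.89). Rps15, of the small subunit head (-0.86, adjusted p = 0.0256), and Rpl35 (-0.82, adjusted p = 0.0232) lost it without 14-day WT replicate 2 and without either 7-day WT library. Rpl38, known for its part in the translation of Hox mRNAs, and Rpl28 were nearest the threshold (-1.01, adjusted p = 0.0498, and -0.90, adjusted p = 0.0471). They kept it in 4 and 2 of the 12 fits without 1 library, and lost it when any 1 of the 4 WT libraries was left out.

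These 7 subunit genes also fell in the other genotypes. They were chosen by their WT change, after values were seen, so no test is given on them as a set. The WT libraries are not among the groups compared in day 14 minus day 7 of the knockout labels. They were in the same fit, however, and entered its filter, scaling and pooled spread, so the calls below are not independent of them. In STING-KO all 7 were called lower at day 14, with a median of -3.43 (-1.01 for the other 70, of which 52 were called). In cGAS-KO all 7 were called lower, with a median of -0.995 (-0.44 for the other 70, of which 23 were called), but among them only the call of Rps28 was made in each fit without 1 library. The WT libraries do enter the day 7 differences from WT, whose values are given with nothing read from them: the medians of these 7 and of the other 70 were 1.11 and 1.11 for cGAS-KO minus WT and 1.20 and 1.22 for STING-KO minus WT. Rps28 fell in STING-KO by 4.37 (SE 0.28, adjusted p = 4.71e-07), Rpl23a by 3.71 (SE 0.38, adjusted p = 1.28e-05), and Rpl28 from 335 and 364 to 32.3 and 29.99 CPM (-3.49, SE 0.36, adjusted p = 1.46e-05). Rpl35 went from 219.8 and 248 to 21.2 and 22.2 CPM (-3.43, SE 0.28, adjusted p = 2.45e-06) and Rps15 from 394 and 415 to 90.6 and 81.8. In all 7 genes, 14-day cGAS-KO replicate 2 exceeded replicate 1 by 0.99 to 1.38 on the log2 scale, while the 14-day WT replicates differed by -0.51 to 0.0062. The transcripts of the 7 had a median GC content of 56.23% (49.46% to 60.36%), beside 51.83% for all 77 subunit genes and 50.75% for the other protein-coding genes tested, and lengths of 271 to 946 bases. With the GC and length trend removed, the WT change of Rps28 was -1.69 and that of Rpl23a -1.75. These 2 had the lowest GC content of the 7 (52.77% and 49.46%). The others, at 54.28% (Rpl21) to 60.36% (Rpl28), are not reported here with the trend removed, and the part of GC content in the WT falls was not tested.

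In the cGAS-KO label 20 large subunit genes, 8 small subunit genes and 2 stalk genes fell from day 7 to day 14. Members called lower in each fit without 1 library included Rps28, Rpl41, Rps27l, Rpl15 and Rpl8. Rps28 fell from 163 and 165 to 22.7 and 45.5 CPM (-2.27, SE 0.25, adjusted p = 9.76e-05). Rpl41 fell from 745 and 649 to 236 and 268 CPM (-1.47, SE 0.20, adjusted p = 0.000361). Rps27l fell from 58.7 and 49.3 to 20.4 and 19.8 CPM (-1.42, SE 0.22, adjusted p = 0.000722). None of these 3 overlapped between the days, which the rule for naming the largest falls required. Over all 19822 tested genes, 6482 lay wholly higher at day 14 in cGAS-KO and 6859 wholly lower. Rps29, a zinc finger protein of the small subunit, had a larger change (-1.55, SE 0.35, adjusted p = 0.00714) that was lost without 14-day cGAS-KO replicate 1 (-1.38). In STING-KO, Rpl41 fell from 718 and 738 to 95.4 and 64.6 CPM (-3.18, adjusted p = 6.68e-07), and Rplp0 by 1.57 on the log2 scale (adjusted p = 1.13e-05). Members without a call there included Rpl3 (-0.22, adjusted p = 0.292), Rps6 (-0.39, 0.0767) and Rps27 (0.20, 0.374).

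Markers of other cells also moved with the days. The 7 microglia and macrophage markers were all higher at day 14 in WT (median 3.53) and all lower in STING-KO (median -3.16), and 4 of 7 were lower in cGAS-KO (median -1.23). The markers of striatal projection neurons were higher at day 14 in every genotype, 9 of 9 in WT, 8 in cGAS-KO and 9 in STING-KO (medians 2.96, 3.34 and 4.98). All 5 fibroblast markers were lower in cGAS-KO and in STING-KO (medians -5.66 and -5.41), and 3 were higher in WT (median 2.11). Of the 6 choroid plexus markers 6 were lower in cGAS-KO and 5 in STING-KO (medians -3.60 and -2.62), and none was called in WT. Other protein-coding genes under 600 bases had medians of 0.037 in WT, -0.34 in cGAS-KO and -0.85 in STING-KO, and those of 4000 bases or more 0.037, 0.14 and 0.36. The subunit genes under 600 bases had medians of 0.42 in WT and -1.19 in STING-KO, and those between 1000 and 2000 bases 0.55 and -1.02, and the difference between subunit genes and other genes of like length was not tested. The part of the markers and of transcript length in the changes with time was not tested.

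**Figure D5:**
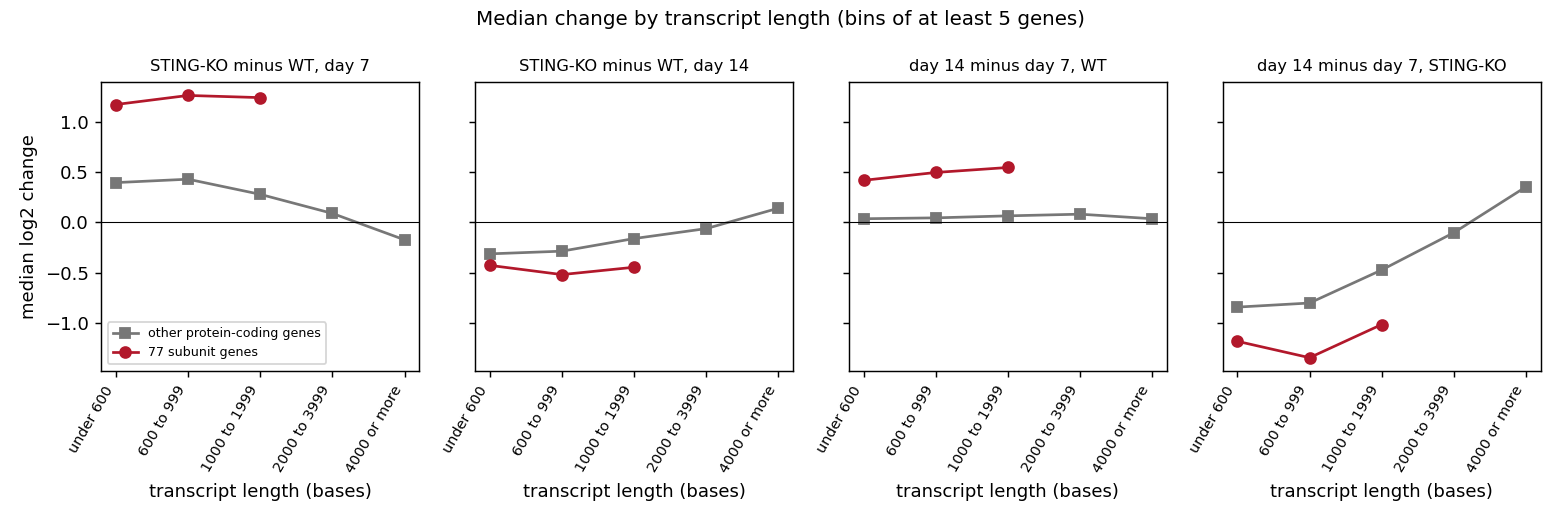
Median log2 change by bin of transcript length (bases) for the subunit genes and for the other protein-coding genes, in 4 comparisons; bins with under 5 genes are left out. In day 14 minus day 7 of STING-KO the other genes run from -0.85 under 600 bases to 0.36 at 4000 bases or more, and the subunit genes lie at -1.02 to -1.35; in day 7 STING-KO minus WT the subunit genes lie at 1.18 to 1.27 where the other genes run from 0.40 to -0.17.

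Members were called higher in both knockout labels than in WT at day 7. By day 14 some were called lower in STING-KO, and none was called in cGAS-KO. The difference between those effects was therefore tested. For STING-KO the difference from WT was lower at day 14 than at day 7 in 78 of 90 members and higher in 0, against 27.6% and 24.3% of all genes, with a median of -1.69 (-0.033 over all genes). Its median over the members went from 1.20 at day 7 to -0.45 at day 14, a change of sign. For cGAS-KO it was lower in 56 and higher in 0, against 21% and 15.7%, with a median of -0.93 (-0.027 over all genes). The 2 comparisons share all 4 WT libraries. Rplp0 had a difference of -3.01 (SE 0.23, adjusted p = 9.69e-07) for STING-KO and -2.09 (SE 0.23, adjusted p = 3.52e-05) for cGAS-KO. Rps27l had -3.40 (SE 0.33, adjusted p = 4.97e-06) and -3.04 (SE 0.32, adjusted p = 2.64e-05), and both genes kept their calls in each fit without 1 library. Rpl41 followed for STING-KO (-2.91, SE 0.29, adjusted p = 6.12e-06) and Rpl10 for cGAS-KO (-1.77, SE 0.24, adjusted p = 0.000135). The cGAS-KO count was 34 without 14-day WT replicate 1, 33 without 7-day WT replicate 2 and 33 without 7-day cGAS-KO replicate 1, all lower, where 26.9%, 25.2% and 27.2% of all genes were called in either direction. With the GC and length trend removed it was 1 higher and 34 lower (median -0.48), and for STING-KO 1 higher and 52 lower (median -0.85).

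Other genes of the pathway were taken from lists for translation and ribosome assembly. Over all tested genes at day 7, 27.8% were higher and 22.4% lower in cGAS-KO than in WT, and 26.3% and 22.6% in STING-KO. In STING-KO at day 14, 16.5% were higher than in WT and 17.4% lower. From day 7 to day 14, 24.1% rose and 19.7% fell in WT, and 27.4% and 29.5% in STING-KO. Rack1 and Fau, ribosomal proteins outside the symbol rule, were higher at day 7 in cGAS-KO (1.65 and 1.36) and in STING-KO (1.80 and 1.55), and both fell from day 7 to day 14 in STING-KO (-1.38 and -0.87). Of 22 translation factors and other TOP mRNAs, 14 were higher in cGAS-KO at day 7 and 17 in STING-KO, 0 were lower in either, and the medians were 0.62 and 0.67. The largest in cGAS-KO were Tpt1, a TOP mRNA (2.18), and Pabpc1, which binds poly(A) tails (1.495). From day 7 to day 14 in STING-KO 17 of the 22 fell and 2 rose (median -0.85). Of 61 genes of ribosome biogenesis, 9 were higher and 11 lower in cGAS-KO at day 7 and 12 and 9 in STING-KO, with medians of -0.030 and -0.021. At day 14 in STING-KO 18 were higher than in WT and 3 lower (median 0.30), and in WT 2 rose and 19 fell from day 7 to day 14 (median -0.25). Of 77 mitochondrial ribosomal proteins, 10 were higher and 4 lower in cGAS-KO at day 7 (median 0.053), and 2 rose and 33 fell from day 7 to day 14 in WT (median -0.46). Of 19 subunits of RNA polymerase I and its factors, which transcribe rRNA, 1 was higher and 1 lower in cGAS-KO at day 7. Of 9 genes of the Mdm2 and p53 response, 5 were higher and 1 lower in cGAS-KO at day 7, among them Cdkn1a, the cell cycle inhibitor p21 (1.86), and Trp53 (1.02). Of the 61 tested genes named as ribosomal protein pseudogenes, 29 were higher and 0 lower in cGAS-KO at day 7 (median 1.05), and their reads cannot be told apart from those of the parent genes where the sequences are alike.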

How the data were processed

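The authors deposited unnormalized read counts of each Ensembl gene for 12 libraries, in 6 groups of 2. Per the labels, polyA+ RNA extracted with Trizol was sequenced in paired reads on an Illumina HiSeq instrument. Per the submitters' processing notes, the authors used HISAT2, featureCounts and mm10. Their versions, the annotation release, the strand setting and the treatment of reads that match several genes are not given in the sources used here, so antisense genes, overlapping genes and near-identical copies may share counts. Symbols, coordinates, transcript length and GC content came from GENCODE M21 (GRCm38), in which 54409 of 54532 IDs had a symbol, and start sites from RefSeq on GRCm38.p6. Length and GC content are those of the shortest transcript among the best-ranked principal ones. For genes without a principal transcript, the longest transcript of the basic set was used.

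The tests used edgeR 4.0.16 (R 4.3.3). Genes were kept by filterByExpr (minimum count 10, minimum total 15), TMM scaling was used, and 19822 genes in all 12 libraries entered 1 quasi-likelihood fit (robust, not the legacy form) with 6 residual degrees of freedom and a biological coefficient of variation of 0.1937. P-values were Benjamini-Hochberg adjusted over all genes of a comparison, with a threshold of 0.05. The SE of a log2 change was taken from its F statistic, as the size of the change divided by the root of F. CPM came from the TMM-scaled totals, and 0.5 was added before taking log2 for spreads and correlations. A count of 0 allows up to 3 counts per library, in libraries of 15956242 to 22126213 counts, for counting error only.

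Members named in the text were up to 5 of the largest rises and falls per comparison among called members whose libraries did not overlap, the 2 nearest the median, the 2 of smallest p where none was called, a fixed set (stalk genes, Rpsa, Rps6, Rps27a, Rpl13a, paralogs and their partners), and the 4 highest, lowest, most and least variable. Exceptions are named where they occur. Some genes that the rule would name are not reported here. The members and the gene lists were chosen with earlier results of these data known.

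Results were recomputed with the DESeq2 1.42.0 Wald test, with size factors from DESeq2 or library totals in place of TMM, with the legacy quasi-likelihood fit, without a filter or with a stronger one (10 counts and 1 CPM in 2 libraries), on the compared groups alone, with a block for replicate number, and without each library in turn, where the lone library of a group was taken to vary like the others. Removal of a smooth GC and length trend of each library (mgcv 1.9.3), estimated on genes outside the ribosomal protein genes, was added after the data had been seen. The test was also tried on simulated counts, for cGAS-KO minus WT at day 14. Each gene had its mean over the 12 libraries in every group and its spread from the main fit. Changes were added only in 14-day cGAS-KO, to genes drawn at random from the tested genes, so recovery among the members was not measured. Of 100 genes changed 1.5-fold it recovered 2%, and of 100 changed 2-fold 45%, among genes with a mean of at least 30 CPM. Changes of this size can therefore be missed in that comparison. Plots used matplotlib 3.10.9 (python 3.11.15).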

Additional observations from a re-analysis of the deposited data

Results flagged for a closer look

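The difference between each knockout label and WT was not the same at the 2 times, by a test of the difference itself in edgeR's quasi-likelihood fit. For the STING-KO label the difference from WT was lower at day 14 than at day 7 in 78 ribosomal protein genes of 90 tested and higher in 0, against 27.6% and 24.3% of all tested genes, and its median over them went from 1.20 to -0.45. For the cGAS-KO label it was lower in 56 and higher in 0, against 21% and 15.7% of all tested genes. Both tests use the same WT libraries.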

How the results depend on the processing

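In each comparison in which any member was called, the direction with more calls was the same under every alternative listed in the methods. Calls in a direction with none as reported appeared in up to 8 members with the GC and length trend removed (STING-KO over time), and in 1 member of a comparison with the replicate block and in some fits without 1 library. For cGAS-KO minus WT at day 14, DESeq2 called 3. For STING-KO minus WT at day 14 the count was 14 with only the libraries compared and 16 with the GC and length trend removed. The trend removal also lowered the count to 15 for day 14 minus day 7 in cGAS-KO and to 35 for the change of the cGAS-KO effect with time. It turned the sign of 5 of the 170 called gene values named: Rpl3 to -0.042 in cGAS-KO minus WT at day 7, Rpl8 to -0.21 in cGAS-KO minus STING-KO at day 14, Rpsa to 0.45 in day 14 minus day 7 of STING-KO, and Rplp1 to 0.044 and Rps4l to 0.088 in the change of the STING-KO effect. The cause was not tested. Without 1 library in turn, the counts ran from 65 to 80 and 67 to 80 for cGAS-KO and STING-KO minus WT at day 7. At day 14 they ran from 0 to 4 and 5 to 34, and for cGAS-KO minus STING-KO from 0 to 0 at day 7 and 26 to 52 at day 14. Over time they ran from 28 to 53 in WT, 7 to 48 in cGAS-KO and 60 to 75 in STING-KO, and for the change of the effects from 33 to 67 (cGAS-KO) and 69 to 82 (STING-KO). Of 3562 alternatives of those 170, 3273 stayed called in the same direction and 284 lost the call. With the replicate number as a block, 79, 79, 0, 32, 0, 42, 43, 36, 70, 56 and 80 members were called, in the order cGAS-KO and STING-KO minus WT at day 7, the same at day 14, cGAS-KO minus STING-KO at day 7 and day 14, day 14 minus day 7 in WT, cGAS-KO and STING-KO, and the change of the cGAS-KO and STING-KO effects. The numbers pair nothing in the labels, and same-numbered libraries deviated from their group means with correlations of -0.122 to 0.243 over 15 pairs of groups. Rpl39l, Rpl3l, Rpl36al, Rps3a2 and Rps3a3 rest on 22 counts or fewer per library.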

Other observations

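Of 23 genes that regulate ribosomal protein synthesis, 5 were higher and 6 lower in cGAS-KO than in WT at day 7 (median -0.18 on the log2 scale), and 7 were higher and 3 lower in STING-KO (median -0.10). Over all tested genes 27.8% were higher and 22.4% lower in cGAS-KO, and 26.3% and 22.6% in STING-KO. The smallest p-values (edgeR) were those of Eif4ebp1, Eif2ak2 and Mtor in cGAS-KO and of Eif4ebp1, Myc and Eif2ak2 in STING-KO. The values of Mtor are not reported here. The day 7 values below are of genes that were higher, from a list whose calls went both ways. Eif4ebp1, a repressor of cap-dependent translation that mTOR inactivates, stood at 2.50 ± 0.441 CPM (SD, n = 2) in 7-day WT, 18.2 ± 2.94 in 7-day cGAS-KO and 20.5 ± 0.559 in 7-day STING-KO. It was higher by 2.85 and 3.03 on the log2 scale (edgeR, adjusted p = 6.22e-06 and 4.06e-06). Eif2ak2, the interferon-induced kinase PKR that halts initiation, was higher by 2.27 and 2.18 (adjusted p = 4.48e-05 and 6.61e-05). Myc, a transcription factor that drives ribosome synthesis, was higher by 2.22 in STING-KO (adjusted p = 3.40e-05). All 3 were lower in STING-KO than in WT at day 14, by -1.69 for Eif4ebp1, -1.70 for Myc and -1.97 for Eif2ak2 (adjusted p = 0.00187, 0.00159 and 0.000347). The list as a whole was mixed in that comparison. Of its 23 genes 3 were higher and 5 lower (median -0.0016), against 16.5% and 17.4% of all tested genes.

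Of 12 genes of ribosome quality control and stalling, 2 were higher and 2 lower at day 7 in each knockout label against WT, no larger a share than over all tested genes. Ltn1, the ubiquitin ligase listerin that marks chains on stalled large subunits, went against the ribosomal protein genes in STING-KO: its mean was 40.7 CPM ± 1.83 at day 7 and 137.5 ± 6.77 at day 14 (SD, n = 2), a log2 rise of 1.76 (adjusted p = 2.38e-06). Edf1, which binds collided ribosomes, changed in the other direction, from 111.5 CPM ± 1.66 to 27.6 ± 10.3 (-2.01, adjusted p = 0.000169). Over all tested genes, 27.4% rose and 29.5% fell from day 7 to day 14 in STING-KO. The count of the whole list in that comparison is not reported here. The part of transcript length and GC content in these differences was not tested.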
